A study of Mus musculus with 135 samples.

Results

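The genes described here are the nuclear genes of respiratory complex I. They are the rows of both gene count tables whose symbol begins with Nduf, without pseudogene names, and whose mean level was at least 1 CPM (the usual counts-per-million scale, on the total reads on genes of each library) over all libraries of either tissue. Of 55416 genes in the tables, 47 carried such a symbol, 1 was left out by its name and 46 were kept. None of the 46 was near the limit on its lower side, the lowest being Ndufa4l2 at 2.08 CPM in cortex and 2.19 CPM in hippocampus, and the gene left out by name, Ndufab1-ps, stood at 0.511 and 0.596 CPM. By role they comprised 7 core subunits, 9 accessory subunits of the matrix arm, 20 accessory subunits of the membrane arm, 8 assembly factors and 2 genes whose products are not complex I subunits, Ndufa4 and Ndufa4l2.

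Complex I (NADH:ubiquinone oxidoreductase) is the entry point of electrons from NADH into the mitochondrial respiratory chain. Its matrix arm oxidises NADH and passes electrons over iron-sulfur clusters to ubiquinone, and its membrane arm pumps protons that drive ATP synthesis. Nuclear genes encode most subunits and all known assembly factors, while the core of the membrane arm is encoded by mitochondrial DNA. Neurons depend heavily on this pathway, and inherited defects in many of these genes cause Leigh syndrome, a neurodegenerative disease.

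The study measured polyA RNA by bulk sequencing in cerebral cortex and hippocampus of adult male humanized Townes mice, whose own globin genes were replaced by human ones. SS mice express sickle haemoglobin and model sickle cell disease, and AA mice express normal human haemoglobin and served as controls. Some were exposed to repeat social defeat (RSD), in which an aggressive male was placed for a few hours daily into the cage of 3 resident males, and some received the antibiotic minocycline in drinking water. Groups are named by genotype and exposure, and "AA" or "SS" alone means neither RSD nor minocycline. The libraries used came from 65 mice, 65 from cortex and 63 from hippocampus. Cortex held 8 SS and 12 AA libraries without exposure, 6 from SS + RSD and 2 from AA + RSD mice, 14 from SS + RSD + minocycline and 18 from AA + RSD + minocycline mice, and 4 from SS + minocycline and 1 from AA + minocycline mice. Hippocampus held the same numbers except for 11 AA and 7 SS. Each library carried its own mouse number, so replicates are separate mice, although up to 3 exposed mice can have shared a cage. The AA + RSD group had 2 mice and the AA + minocycline group 1 mouse, which entered no comparison of its own. In whole tissue, fewer cells of a type and less RNA per cell cannot be told apart.

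Reads on genes ranged from 12869149 to 107713193 per library. A log2 score of hippocampal over cortical marker genes ran from -3.18 to 0.10 in cortex libraries (median -2.34) and from 0.36 to 2.86 in hippocampus libraries (median 2.03). The ranges did not overlap but came close, and the highest cortex library was slightly over 0, with no clear excess of cortical markers. These ranges leave out mouse 9674, whose 2 libraries scored as the other tissue and were not used. The libraries of mice 9877 and 9887, labelled as different groups, held identical counts in each tissue and were also left out. The labels give each library a column number in its table. Column 38 of the cortex table and columns 37 and 38 of the hippocampus table belonged to no library with a known group, and are the only gaps in the numbering. That number bears on every comparison below, because all AA + RSD and SS + RSD libraries came from columns after 38, while 6 of the 12 AA and 6 of the 8 SS cortex libraries came from columns before it. The mouse numbers fall into 3 number series, here called A, B and C, which go with the columns. Series C libraries are in columns 1 to 8, series B in columns 9 to 54 and series A in columns 55 and above, so that series B alone has libraries on both sides of the gap. What the column number and the number series mark is not given in the sources used here.

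Together the 46 genes took 0.329% of reads on genes in cortex (0.215 to 0.650% over libraries) and 0.320% in hippocampus. Per kilobase of transcript, the most abundant was Ndufa4, which encodes a subunit of complex IV, at 392 ± 130 CPM per kb (SD, n = 65) in cortex and 368 ± 104 (SD, n = 63) in hippocampus. It was followed by 3 accessory subunits, Ndufb10 at 141 and 137 CPM per kb, Ndufa3 at 128 and 132, and Ndufa6 at 124 and 114 in cortex and hippocampus. The lowest were Ndufa4l2, a hypoxia-responsive paralog of Ndufa4, at 2.16 and 2.30 CPM per kb, the assembly factor Ndufaf1 at 3.50 and 3.43, and the accessory subunit Ndufb2 at 4.35 and 4.43. The median gene of the 46 stood at 63.9 CPM per kb in cortex and 63.4 in hippocampus, against 7.09 and 7.02 over all genes with a mean of at least 1 CPM, and 42 of the 46 lay above the gene median in each tissue. The plot of level per length sets out 45 of the 46 genes.

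**Figure D1:**
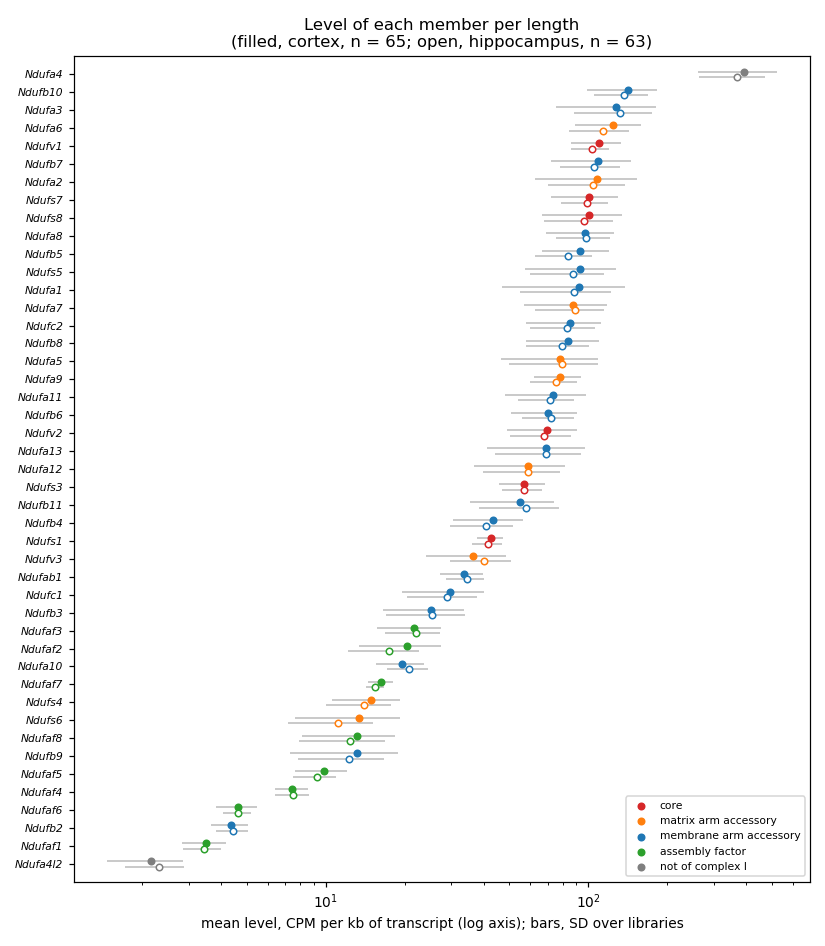
Mean level of 45 of the 46 genes in CPM per kb of canonical transcript (horizontal log axis) in cortex (filled, n = 65 libraries) and hippocampus (open, n = 63), coloured by role, with bars of 1 SD over libraries. Ndufa4 stands highest at 392 CPM per kb in cortex, and Ndufa4l2 lowest at 2.16.

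The genes lie on 17 chromosomes and mostly give short transcripts, with a median canonical length of 1203 bases (452 for Ndufa1 to 7389 for Ndufa10) against 3368 bases over 15332 expressed genes (GRCm39). Ndufs1, which encodes the largest core subunit, lies at chr1:63182058-63216236 on the minus strand, and Ndufa1, the X-linked gene of a small membrane arm subunit, at chrX:36451241-36454849. Several overlap genes on the opposite strand over more than 50% of their canonical transcript. The share counts all such genes together, and the gene of largest overlap is named. These are Ndufa3 with Tfpt (78%), Ndufa4l2 with Shmt2 (75%), Ndufb11 with Rbm10 (68%), Ndufb6 with Smim27 (60%), Ndufa6 with Smdt1 (59%), Ndufs7 with Gamt (57%) and Ndufa13 with Tssk6 (54%). The strand setting of the counting is not given in the sources used here, so reads of these pairs may not have been told apart. Ndufb8 shares 69% of its transcript with genes on the same strand, of which Gm20538 has the largest overlap, and its count is uncertain for that reason.

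Across libraries most of the genes rose and fell together. The correlation of each gene's log2 CPM with the mean of the other 45 had a median of 0.94 in both tissues, and exceeded 0.8 for 37 genes in cortex (65 libraries) and 40 in hippocampus (63 libraries). It was lowest for the assembly factor Ndufaf4, at -0.09 in cortex and -0.12 in hippocampus. In hippocampus the assembly factors Ndufaf6 and Ndufaf7 and the paralog Ndufa4l2 were also under 0.5. The 5 genes outside the set that ran closest to its mean in cortex were Atp5j2 and Atp5h of the ATP synthase (0.988 and 0.983), the splicing protein Snrpd2 (0.984), the nucleotide hydrolase Hint1 (0.983) and Uqcr10 of complex III (0.983). In hippocampus they were Cox6b1 and Cox7a2 of complex IV (0.992 and 0.988), Atp5h and Atp5j2 (0.988 and 0.987) and the ribosomal protein gene Rpl38 (0.986). These points share libraries, depth and column range, and the correlations are a description with no test.

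Promoters are shown because the genes moved together, with 1 gene that did not as a contrast. RefSeq windows of 300 bases, 250 before and 50 after each start (GRCm38.p6), were found for 40 of the 46 genes. Of the 40, 9 (22.5%) held the NRF1 motif (GCGCA, any base, then GCGC) on either strand, against 5.19% of 27025 genes. NRF1 is a known activator of nuclear respiratory genes. The YY1 motif AAGATGGC was in 8 (20%, against 3.19%) and the ETS motif CCGGAAGT, bound by the GABP factor, in 1 (2.5%, against 4.31%), so that 17 of 40 held any of the 3 (42.5%, against 11.7%). Matches are letters in a window and not measured binding. The 27025 genes were not limited to expressed genes, and a link between the motifs and the shared movement was not tested. The following are the 250 bases before the start of Ndufb4 (chr16:37654369-37654618, minus strand), an accessory subunit with 3 NRF1 matches, Ndufa5 (chr6:24527691-24527940, minus strand), an accessory subunit with 1, and Ndufaf4 (chr4:24897833-24898082, plus strand), which has 1 match although it did not move with the others. They are written 5′ to 3′ along the gene with NRF1 matches in capitals.
Ndufb4: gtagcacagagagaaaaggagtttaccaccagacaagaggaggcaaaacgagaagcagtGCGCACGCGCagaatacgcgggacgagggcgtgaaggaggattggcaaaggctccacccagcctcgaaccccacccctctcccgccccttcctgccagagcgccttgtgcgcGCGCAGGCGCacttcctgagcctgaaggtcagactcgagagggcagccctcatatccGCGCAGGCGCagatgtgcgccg
Ndufa5: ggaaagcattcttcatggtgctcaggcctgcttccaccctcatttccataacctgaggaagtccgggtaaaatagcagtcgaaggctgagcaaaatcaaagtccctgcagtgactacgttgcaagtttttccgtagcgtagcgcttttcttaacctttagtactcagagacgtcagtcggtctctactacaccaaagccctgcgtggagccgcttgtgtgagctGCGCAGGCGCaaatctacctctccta
Ndufaf4: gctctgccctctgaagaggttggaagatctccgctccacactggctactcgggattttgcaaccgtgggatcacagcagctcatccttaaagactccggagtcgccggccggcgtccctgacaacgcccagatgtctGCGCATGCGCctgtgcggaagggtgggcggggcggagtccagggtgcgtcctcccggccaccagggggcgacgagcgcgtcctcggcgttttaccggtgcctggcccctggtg

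The 8 YY1 matches all lay just downstream of the annotated start, with their first base between positions 11 and 39 after it, and all read in the direction of the gene. They belong to subunits of both arms and to 1 assembly factor, Ndufaf8. The 22 bases around each match are given below, 5′ to 3′ along the gene, with the match in capitals.
Ndufa3: cgccaagaacAAGATGGCcggg
Ndufa9: attgtgggagAAGATGGCggcc
Ndufaf8: ggcagggcccAAGATGGCggcg
Ndufb8: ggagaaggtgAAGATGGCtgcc
Ndufc1: cctgcggaacAAGATGGCgccg
Ndufs4: tgcctacaggAAGATGGCggcg
Ndufs6: ggtcaccggcAAGATGGCggcg
Ndufs7: ggccgaggccAAGATGGCggcg

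The comparison of SS + RSD with SS mice asks what stress exposure did in sickle mice. All 46 genes had a higher fitted level in SS + RSD cortex, with a median log2 difference of 0.44 against 0.08 over all 19906 genes tested, but none passed the test. The edgeR quasi-likelihood test called 0 of the 46 (2.57% of all genes were called, 455 of those 511 lower), 8 had an unadjusted p under 0.05 and DESeq2 also called 0. The share of all genes at that unadjusted threshold is not given here or below, so such counts cannot be set against it. In hippocampus 43 of the 46 lay above 0, with a median of 0.26 against 0.06, again with 0 called (3.11% of all genes) by either tool and 0 at an unadjusted p under 0.05.

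The summed level of the 46 genes in the 8 SS cortex libraries ran from 2590 to 4240 CPM with a median of 2900. In the 6 SS + RSD libraries it was 2838, 3019, 3487, 3742, 4581 and 5404 CPM. The groups overlapped, with 2 SS libraries above the SS + RSD median of 3615, and both were the SS libraries from columns after 38 (3765 and 4240 CPM). In hippocampus SS mice ran from 2432 to 4134 (median 2673) and SS + RSD mice from 3048 to 3881 (median 3507). There the 2 SS libraries after column 38, at 3993 and 4134 CPM, lay above all 6 SS + RSD libraries. The plot of summed level by group shows the same overlap for all 8 groups.

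**Figure D2:**
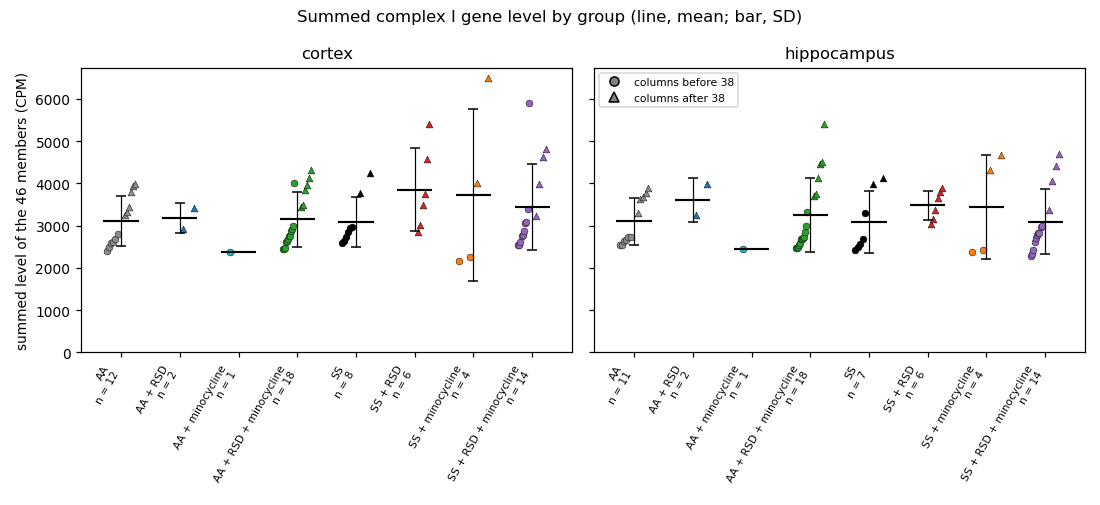
Summed level of the 46 complex I genes in CPM (vertical axis from 0) for each library in cortex and hippocampus by group, with marker shape giving the column range, a line for the group mean and a bar for 1 SD. Every SS + RSD library is from the columns after 38, and in hippocampus their mean of 3482 CPM lies between the earlier SS libraries and the 2 later ones at 3993 and 4134.

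The core subunits of the matrix arm, which hold the flavin and the iron-sulfur clusters, showed the size of the shift. Ndufs1, the largest iron-sulfur subunit, measured 132 to 179 CPM (median 142) in SS cortex and 145 to 173 CPM (median 163) in SS + RSD cortex, a log2 difference of 0.22 ± 0.10 (SE, edgeR adjusted p = 0.174). Ndufv1, the NADH-binding flavoprotein, ran from 150 to 219 CPM (median 168) and from 151 to 266 CPM (median 188), a difference of 0.32 ± 0.18 (adjusted p = 0.244). In both the groups overlapped over most of their range. Differences of other core genes were 0.27 ± 0.18 for Ndufs3, 0.38 ± 0.24 for Ndufs7, 0.56 ± 0.28 for Ndufs8 and 0.50 ± 0.25 for Ndufv2, with adjusted p from 0.183 to 0.322. In hippocampus the 7 core differences were 0.15 to 0.37.

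Among accessory subunits the smallest p in SS + RSD against SS cortex was that of Ndufa9, which sits at the junction of the arms, at 0.42 ± 0.17 (SE, edgeR adjusted p = 0.125). It measured 90.9 to 148 CPM (median 97.8) in SS and 109 to 168 CPM (median 122) in SS + RSD mice. The medians by role were 0.32 for the core, 0.49 for the matrix arm, 0.47 for the membrane arm and 0.40 for the assembly factors. The role medians in hippocampus were lower, at 0.20, 0.32, 0.27 and 0.22. Ndufa4 of complex IV stood at 0.52 ± 0.27 in cortex, near the complex I subunits, and Ndufa4l2 at 0.07 ± 0.24. Ndufaf4 measured 22.1 to 31.6 CPM in SS and 24.2 to 28.3 CPM in SS + RSD cortex, a difference of 0.04 ± 0.09.

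The comparison of SS + RSD + minocycline with SS + RSD mice asks what the drug did under stress, and here the signs were opposite. All SS + RSD mice belong to number series A and all SS + RSD + minocycline mice to series B or C, so drug and number series cannot be told apart within this pair of groups. In cortex 44 of the 46 genes had a lower fitted level with minocycline, with a median of -0.27 against -0.05 over all genes, and in hippocampus 42 did, with a median of -0.21 against -0.03. In the shortest length group the median over all genes was -0.15 in each tissue, and that of the 25 complex I genes -0.27 in cortex and -0.23 in hippocampus. The edgeR and DESeq2 tests each called 0 of the 46 in either tissue, where edgeR called 8.85% of all genes in cortex and 5.96% in hippocampus. At an unadjusted p under 0.05 there were 4 genes in cortex, all lower, and 0 in hippocampus. They included Ndufa9 at -0.40 ± 0.15 (SE, edgeR adjusted p = 0.0951), Ndufb2 at -0.28 ± 0.13 (0.162) and Ndufs1 at -0.20 ± 0.09 (0.177). This comparison and the previous one share the SS + RSD libraries, so opposite signs in the pair are not independent of each other.

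Summed levels in the 14 SS + RSD + minocycline libraries ran from 2535 to 5910 CPM in cortex (median 3074) and from 2287 to 4696 CPM in hippocampus (median 2828). These ranges reached past the SS + RSD ranges on both sides. The highest cortex value, 5910 CPM, came from mouse 7076 in column 4, whose hippocampus library stood at 2323 CPM. Of the 14 libraries, 10 came from columns before 38, while all 6 SS + RSD libraries came from columns after it.

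Minocycline without stress was compared with the same SS libraries. SS + minocycline against SS had a median of 0.32 in cortex (45 genes above 0) and 0.22 in hippocampus (43 above 0), with 0 of 46 and 0% of all genes called by edgeR in each tissue, 0 members at an unadjusted p under 0.05 and 0 called by DESeq2. In the shortest length group the median over all genes was 0.25 in cortex and 0.16 in hippocampus, and that of the 25 complex I genes 0.33 and 0.20. The 4 SS + minocycline libraries were far apart, at 2151, 2248, 4000 and 6499 CPM in cortex and 2364, 2419, 4318 and 4677 CPM in hippocampus. In each tissue the lower pair came from columns before 38 and the upper pair from columns after. SS + RSD + minocycline against SS + minocycline had medians of -0.17 in cortex and -0.18 in hippocampus, with 0 of 46 and 0% of all genes called by edgeR, 0 members at an unadjusted p under 0.05 and 0 by DESeq2.

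In AA mice the median was 0.02 in cortex and 0.21 in hippocampus for AA + RSD against AA, and -0.04 and -0.12 for AA + RSD + minocycline against AA + RSD, a pair that is also wholly of different number series. The edgeR test called 0 of the 46 in each (0% of all genes in cortex and 0.0419% in hippocampus for both), as did DESeq2, and 1 gene, Ndufaf4 in hippocampus under minocycline, had an unadjusted p under 0.05 (0.30 ± 0.13). With 2 AA + RSD mice, at 2928 and 3425 CPM in cortex and 3240 and 3981 CPM in hippocampus, only large differences could have been detected. The interaction of genotype and RSD, which tests whether the response to RSD differed between SS and AA mice, had a median of 0.37 in cortex and 0.04 in hippocampus. It called 0 of the 46 by edgeR (0% and 0.0128% of all genes) and by DESeq2, with 0 at an unadjusted p under 0.05. In the shortest length group the interaction in cortex had a median of 0.37 over all genes and also 0.37 in the 22 complex I genes. The next length group had 0.19 over all genes and 0.41 in 13 complex I genes. For AA + RSD against AA in hippocampus the shortest length group had 0.20 over all genes and 0.24 in 23 complex I genes.

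The difference between genotypes was small beside its error in most of these genes. SS against AA had a median of -0.08 in cortex, where summed levels were 3092 ± 591 CPM (SD, n = 8) in SS and 3109 ± 584 CPM (SD, n = 12) in AA mice. In hippocampus the median was -0.02, with 3084 ± 731 CPM (SD, n = 7) against 3101 ± 552 CPM (SD, n = 11). By edgeR 0 of the 46 were called (0.206% and 0.158% of all genes), as by DESeq2. The gene nearest to a call was Ndufa4l2, at 0.33 ± 0.17 in cortex (edgeR p = 0.0597, adjusted p = 0.678) and 0.45 ± 0.16 in hippocampus (p = 0.00666, adjusted p = 0.758), the 1 gene of the 46 with an unadjusted p under 0.05. It measured 1.12 to 2.59 CPM (median 1.88) in 11 AA and 2.02 to 3.77 CPM (median 2.53) in 7 SS hippocampus libraries, so the groups overlapped.

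Under RSD, SS + RSD against AA + RSD had a median of 0.30 in cortex and 0.01 in hippocampus, with 0 of 46 called by edgeR (0% and 0.0171% of all genes) and DESeq2. Under RSD and minocycline the median was 0.09 in cortex and -0.09 in hippocampus, with 0 of 46 called by either tool (0.599% and 2.73% of all genes by edgeR). In these 2 comparisons Ndufa4l2 again had the smallest p of the set, at 0.65 ± 0.32 (SE, edgeR adjusted p = 1) and 0.35 ± 0.13 (adjusted p = 0.324) in cortex and, under RSD and minocycline, 0.27 ± 0.12 (adjusted p = 0.426) in hippocampus. It was the 1 gene of the 46 at an unadjusted p under 0.05 in these, and in SS + RSD against AA + RSD hippocampus there were 0. The fitted level of Ndufa4l2 was lower in SS + RSD than in AA + RSD hippocampus, at -0.13, and higher in SS libraries in the other genotype comparisons. None of these differences passed the test, and the gene overlaps Shmt2 on the opposite strand.

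A larger difference lay between mice of the same group. Among unexposed, untreated control mice, series B had lower levels than series A in 42 of the 46 genes in cortex and again in 42 in hippocampus (edgeR, genotype in the model; 19.1% and 22.5% of all genes were lower, and 40.3% and 40.8% were called in either direction). DESeq2 called 42 lower in each tissue as well. The median log2 difference was -0.50 in cortex (0.02 over all genes) and -0.62 in hippocampus (0.01). Summed levels were 3258 to 4240 CPM in the 6 series A and 2388 to 3989 CPM in the 14 series B cortex libraries, and 3624 to 4134 CPM in 5 against 2432 to 3684 CPM in 13 in hippocampus. All series A libraries are from columns after 38, while series B has 2 later AA libraries in each tissue, at 3431 and 3989 CPM in cortex and 3298 and 3684 CPM in hippocampus, and its others are from columns before 38. The lowest p in cortex was that of the assembly factor Ndufaf2, at -0.61 ± 0.10 (SE, adjusted p = 0.00025), and in hippocampus that of Ndufb10, at -0.64 ± 0.08 (adjusted p = 7.05e-05). The 4 genes without a call were the same in both tissues, Ndufaf4, Ndufaf6, Ndufaf7 and Ndufa4l2.

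The column number divided the libraries in a similar way, also within series B. Over all used libraries, summed complex I level in cortex had a median of 2692 CPM before column 38 (2151 to 5910, n = 37) and 3814 CPM after it (2838 to 6499, n = 28). In hippocampus the medians were 2650 CPM (2287 to 3312, n = 36) and 3881 CPM (3048 to 5415, n = 27). Each of the 63 mice with both libraries was in the same range in both tissues. The plot of summed level by column shows the step at the gap. The division by column was chosen after these values had been seen, so the tests below describe the difference and are not independent evidence of it.

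**Figure D3:**
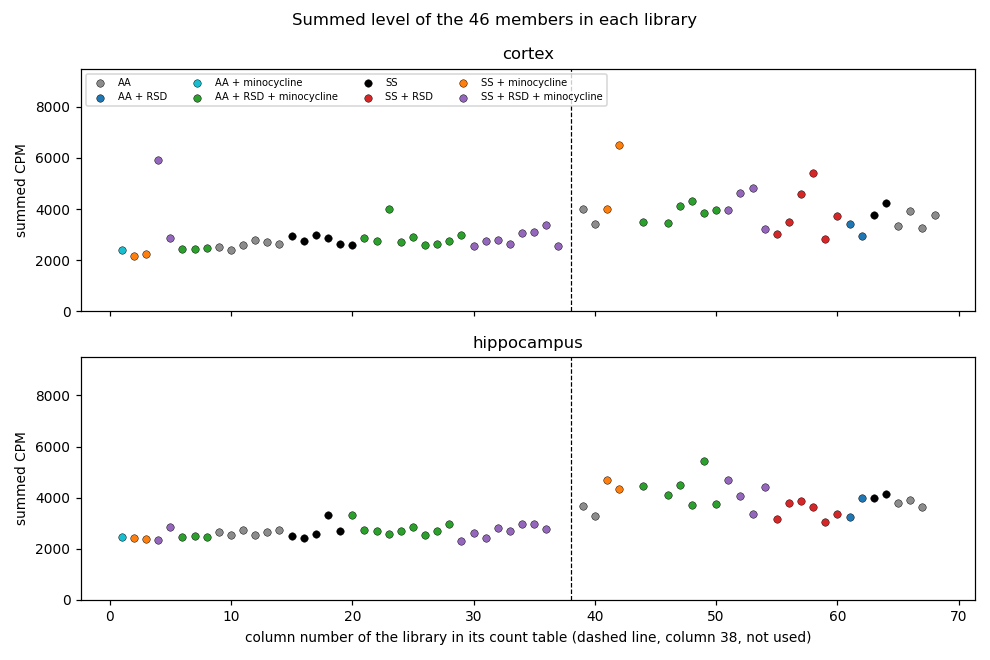
Summed level of the 46 genes in CPM for each library (vertical axis from 0) against its column number in the cortex (top) and hippocampus (bottom) table, coloured by group, with a dashed line at column 38. Hippocampus libraries lie at 2287 to 3312 CPM before the line and 3048 to 5415 CPM after it.

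Within a group, libraries after column 38 were compared with libraries before it in the 4 groups that had both. The AA mice had 43 of 46 genes higher in cortex (49.5% of all genes called in either direction) and 41 in hippocampus (40.7%), with medians of 0.64 and 0.58. The AA + RSD + minocycline mice had 40 higher in cortex (38.7%) and 44 in hippocampus (58.3%), with medians of 0.55 and 0.81. The SS mice had 40 higher in cortex (31.6%) and 37 in hippocampus (20.7%), with medians of 0.65 and 0.73. The SS + RSD + minocycline mice had 8 higher in cortex (18.2%) and 42 in hippocampus (42.7%), with medians of 0.49 and 0.78. None of the 46 was lower in any of the 8 comparisons by edgeR. In SS mice the later libraries are series A and the earlier ones series B, so column range and series cannot be told apart there. Within series B alone the medians were 0.62 in cortex and 0.47 in hippocampus for AA mice, 0.49 and 0.77 for AA + RSD + minocycline mice, and 0.66 and 0.77 for SS + RSD + minocycline mice. The cortex count of 8 became 38 without mouse 7076, and the SS hippocampus count of 37 became 8 or 10 when either of the 2 later mice was left out.

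Core subunits showed the step in single libraries. Ndufs8, which carries iron-sulfur clusters near the membrane, measured 54.01 to 77.8 CPM (median 60.01) in the 12 earlier and 85.0 to 138 CPM (median 110) in the 6 later AA + RSD + minocycline hippocampus libraries, a difference of 0.92 ± 0.10 (SE, edgeR adjusted p = 1.37e-07). Ndufv2, the iron-sulfur partner of Ndufv1, measured 84.8 to 129 CPM (median 99.5) and 144 to 223 CPM (median 162), a difference of 0.88 ± 0.09 (adjusted p = 1.22e-07). Ndufs1 measured 120 to 146 CPM (median 137) and 157 to 201 CPM (median 187), a difference of 0.52 ± 0.05 (adjusted p = 8.64e-08). In none of these 3 did the ranges overlap. In hippocampus of this group every later library lay above every earlier one for 28 of the 46 genes, against 8.05% of all genes. In cortex of this group that held for 1 of the 46, against 1.67% of all genes. Other core differences in hippocampus of this group were 0.57 ± 0.09 for Ndufs3, 0.56 ± 0.12 for Ndufs7 and 0.54 ± 0.10 for Ndufv1. In cortex the 7 core differences ran from 0.29 to 0.70, and all 7 passed the test in each tissue.

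The median difference was larger for the accessory subunits than for the core, a contrast between roles that was not tested. Ndufa1, a small membrane arm subunit needed for assembly, measured 25.5 to 38.02 CPM (median 28.8) in the 12 earlier and 50.9 to 80.0 CPM (median 65.5) in the 6 later AA + RSD + minocycline hippocampus libraries, a difference of 1.23 ± 0.09 (SE, edgeR adjusted p = 6.15e-10). Ndufa5 of the matrix arm, whose promoter is shown above, measured 42.8 to 67.3 CPM (median 50.97) and 83.1 to 150 CPM (median 110), a difference of 1.19 ± 0.11 (adjusted p = 1.09e-08). For both genes, as for 28 of the 46 in hippocampus, the highest earlier library lay below the lowest later one. In cortex Ndufa1 and Ndufa5 differed by 0.76 ± 0.15 and 0.71 ± 0.17. There 1 earlier library was high for both genes, at 57.7 and 112 CPM. Medians by role in hippocampus were 0.56 for the core, 0.95 for the matrix arm, 0.82 for the membrane arm and 0.63 for the assembly factors, and in cortex 0.40, 0.68, 0.57 and 0.36. The roles overlapped, with the membrane arm running from 0.31 to 1.23 and the core from 0.46 to 0.92 in hippocampus.

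Each of the 8 comparisons of later with earlier columns called between 18.2 and 58.3% of all genes in either direction. The number of all genes called in 7 or 8 of them is not given here. Across the 8, 7 of the 46 genes were called higher in all 8 and 31 in 7. At the other end, the assembly factor Ndufaf4 and the paralog Ndufa4l2 were called in 0, the assembly factor Ndufaf6 in 1, the accessory subunit Ndufb2 in 2 and the assembly factor Ndufaf7 in 3. In AA + RSD + minocycline hippocampus, Ndufaf4 measured 23.4 to 31.4 CPM (median 27.7) in earlier and 23.2 to 32.2 CPM (median 29.5) in later libraries, a difference of 0.16 ± 0.07 (SE, edgeR adjusted p = 0.0611). Ndufa4l2 measured 1.43 to 2.65 CPM (median 2.10) and 1.51 to 2.42 CPM (median 1.84), a difference of -0.05 ± 0.15 (adjusted p = 0.813). The earlier and later ranges overlapped for both. Ndufa4 of complex IV, the paralog of Ndufa4l2, measured 135 to 199 CPM (median 155) and 230 to 336 CPM (median 282), a difference of 0.94 ± 0.09 (adjusted p = 2.16e-08).

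The count of genes in which every later library lay above every earlier one uses no model, but rests on the same split chosen from these values. In AA mice this held for 37 of the 46 in cortex (10.1% of all genes) and 41 in hippocampus (10.5%). In SS mice it held for 39 (17.5%) and 35 (17.9%), where 2 later libraries were compared. In the AA + RSD + minocycline mice it held for 1 in cortex (1.67%) and 28 in hippocampus (8.05%), and in the SS + RSD + minocycline mice for 0 (1.31%) and 28 (7.52%). The cortex counts of these last 2 groups were near the share of all genes, so the step did not show in them. Those low counts go with single libraries of high level in early columns, such as that of mouse 7076.

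Other gene groups were compared at the same step, in later against earlier AA + RSD + minocycline libraries, where 38.7% of all genes in cortex and 58.3% in hippocampus were called in either direction. Here 4 of 4 complex II, 8 of 9 complex III, 10 of 10 complex IV and 15 of 15 complex V genes were higher in cortex, and the same counts held in hippocampus. Sdhc of complex II was higher by 0.41 ± 0.05 (SE) in cortex, Uqcrq of complex III by 0.72 ± 0.11, Cox6a1 of complex IV by 0.70 ± 0.09 and Atp5g1 of the ATP synthase by 0.50 ± 0.07. Of 82 cytosolic ribosomal protein genes, 73 were higher and 2 lower in cortex, and 75 and 3 in hippocampus. The 7 mitochondrially encoded complex I genes were mixed, with 2 higher and 2 lower in cortex and 5 higher and 1 lower in hippocampus. The 2 lower in cortex were mt-Nd3, at -2.43 ± 0.90, and mt-Nd4l, at -2.58 ± 0.95.

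Of 11 regulators of mitochondrial biogenesis, 1 was higher and 4 lower in cortex, and 3 higher and 4 lower in hippocampus, which is near the share of all genes called (38.7% and 58.3%). The median of the list was -0.03 in cortex and -0.10 in hippocampus. The coactivators Ppargc1b, at -0.79 ± 0.14 (SE) in cortex and -1.50 ± 0.20 in hippocampus, and Pprc1, at -0.43 ± 0.09 and -0.70 ± 0.08, were lower after column 38. Nrf1, the gene of the factor whose motif is shown above, stood at -0.26 ± 0.06 in cortex. Tfam, which packages mitochondrial DNA, was higher in hippocampus by 0.53 ± 0.05. Nrf1 and Tfam are each given for 1 tissue only, so that pair is not a contrast. Of 10 complex I assembly genes outside the Nduf names, 3 were higher and 1 lower in cortex, and 6 higher and 1 lower in hippocampus, also near those shares. The lower one was Foxred1 in both tissues, at -0.45 ± 0.09 and -0.48 ± 0.07.

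The same lists were compared under stress. In SS + RSD against SS cortex the median log2 difference was 0.33 for complex II, 0.41 for complex III, 0.49 for complex IV, 0.43 for complex V, 0.60 for ribosomal protein genes and 0.05 for regulators of biogenesis, with 0 called by edgeR in each of these lists. In hippocampus the medians were 0.23, 0.29, 0.30, 0.30, 0.38 and 0.03, also with 0 called. Single genes passed the test in cortex, mt-Nd4l at 3.23 ± 0.79 (SE, adjusted p = 0.0405) and Foxred1 at -0.43 ± 0.12 (adjusted p = 0.0482). Foxred1 was also lower in hippocampus, at -0.51 ± 0.11 (adjusted p = 0.038), and in SS + RSD + minocycline against SS + RSD it was higher in both tissues, at 0.47 ± 0.11 (adjusted p = 0.0116) and 0.43 ± 0.10 (adjusted p = 0.0256). In that comparison Uqcrc2 of complex III (-0.37 ± 0.12), citrate synthase Cs (-0.21 ± 0.06) and mt-Nd4l (-2.91 ± 0.64) were lower in cortex. With the column range as a term, none of these calls remained. In SS + RSD against SS, mt-Nd4l became 3.83 ± 0.90 (adjusted p = 0.0882) in cortex, and Foxred1 -0.08 ± 0.08 in cortex and -0.22 ± 0.07 in hippocampus. In SS + RSD + minocycline against SS + RSD, Foxred1 became 0.15 ± 0.07 in cortex and 0.12 ± 0.06 in hippocampus, and in cortex Uqcrc2 -0.09 ± 0.10, Cs -0.08 ± 0.06 and mt-Nd4l -3.53 ± 0.82 (adjusted p = 0.135).

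Several library properties changed at the same column. The share of reads outside genes had a median of 9.75% before column 38 (4.27 to 13.9%) and 5.13% after it (3.68 to 9.84%) in cortex, and 9.32% and 4.71% in hippocampus. The summed level of cytosolic ribosomal protein genes had medians of 9594 and 14794 CPM in cortex and 9540 and 16591 CPM in hippocampus. Lists of microglia (265 and 335 CPM in cortex, 296 and 375 CPM in hippocampus), astrocyte (901 and 1156, 1320 and 1627) and oligodendrocyte markers (4122 and 4755, 4092 and 5560) were higher after the gap, as was the endothelial list (230 and 272, 214 and 241), while the neuron list was near level (8072 and 8217, 6938 and 6984). Lists of region markers were lower after it, at 411 and 346 CPM for the cortex list in cortex and 598 and 499 CPM for the hippocampus list in hippocampus. The red cell list had medians of 23.7 and 101 CPM in cortex and 11.7 and 69.1 CPM in hippocampus, and the choroid plexus list 9.68 and 16.7, and 53.3 and 100.3 CPM. Their part in the difference was not tested. The cortex library of mouse 7076, high in complex I for its range, had 4.27% of its reads outside genes, the lowest share before column 38. That of mouse 9851, also high for its range at 3998 CPM, had 13.9%, the highest share in cortex.

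The step was also set against transcript length. With all tested genes divided by canonical length into 5 groups of equal size, the median difference of later against earlier AA + RSD + minocycline libraries fell from 0.06 in the shortest group to -0.10 in the longest in cortex, and from 0.16 to -0.22 in hippocampus. The complex I genes in the shortest group, 29 of the 46, had a median of 0.56 in cortex and 0.83 in hippocampus. The 8 in the next group had 0.48 and 0.66, the 4 in the middle one 0.34 and 0.59, the 4 in the next to longest 0.44 and 0.78, and the 1 in the longest 0.45 and 0.62. In the shortest group of SS hippocampus the order differed, with a median over all genes of -0.39 there against 0.22 in the next group and -0.12 in the longest, while the 23 complex I genes in it had 0.77. In each length group of the AA + RSD + minocycline mice the members stood above the median of all genes of like length, as the plot of difference against length shows.

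**Figure D4:**
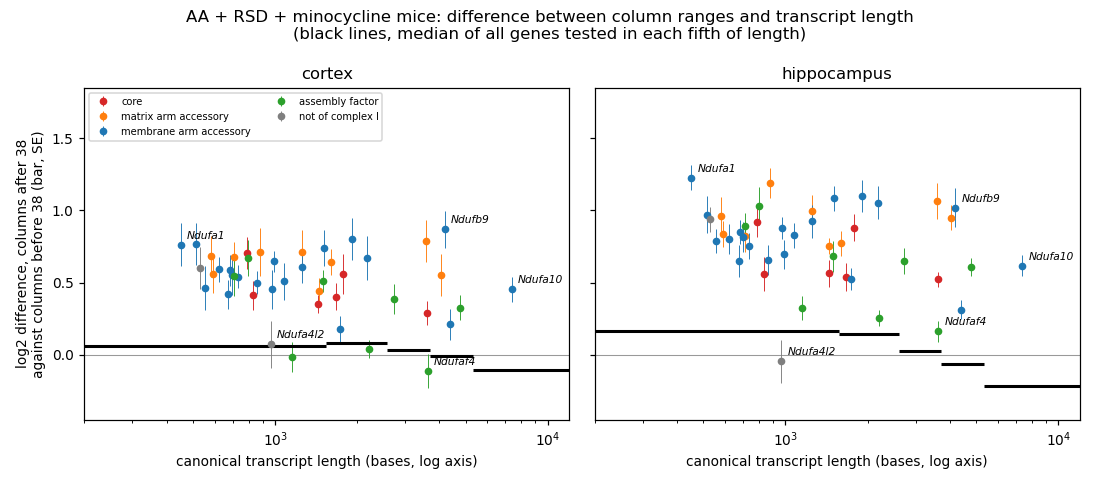
Log2 difference between columns after and before 38 in AA + RSD + minocycline mice (vertical axis, bar 1 SE) against canonical transcript length in bases (log axis) for 45 of the 46 genes, coloured by role, with black lines for the median of all genes tested in each of 5 length groups. In hippocampus the black lines run from 0.16 to -0.22, and the members' medians lie between 0.59 and 0.83.

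When the column range was added to the model as a term, the stress and drug differences of the complex I genes changed sign. For SS + RSD against SS the median became -0.06 in cortex (11 of 46 above 0) and -0.29 in hippocampus (0 above 0), with 0 of the 46 and 0% of all genes called in each. In cortex Ndufa9 went from 0.42 ± 0.17 (SE) to 0.03 ± 0.14. For SS + RSD + minocycline against SS + RSD it became 0.22 in cortex (41 above 0, 0 and 0% of all genes called) and 0.32 in hippocampus (46 above 0), where 9 of the 46 were called higher (3.98% of all genes in either direction). The 9 were Ndufa1 at 0.53 ± 0.12, Ndufa5 at 0.54 ± 0.14, Ndufaf2 at 0.54 ± 0.14, Ndufa12 at 0.52 ± 0.13, Ndufb3 at 0.51 ± 0.13, Ndufs6 at 0.50 ± 0.13, Ndufv3 at 0.45 ± 0.12, Ndufa6 at 0.43 ± 0.11 and Ndufv2 at 0.41 ± 0.11, with adjusted p from 0.043 to 0.0464. The plot of fits with and without the term shows the move of 45 genes.

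**Figure D5:**
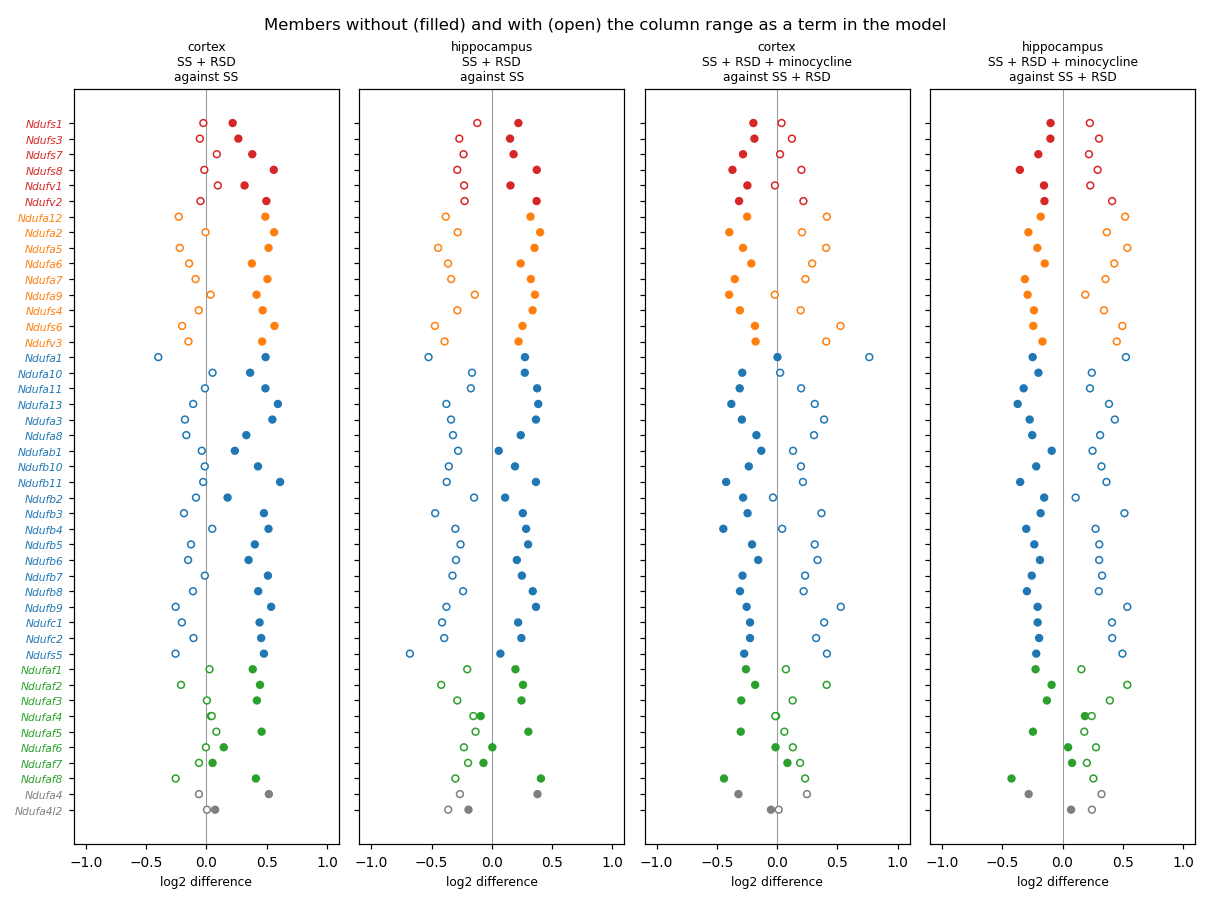
Log2 difference of 45 of the 46 genes (horizontal axis) in SS + RSD against SS and SS + RSD + minocycline against SS + RSD, in cortex and hippocampus, fitted without (filled) and with (open) the column range as a term. With the term the medians over all 46 move from 0.44 to -0.06 and from -0.27 to 0.22 in cortex, and from 0.26 to -0.29 and from -0.21 to 0.32 in hippocampus.

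Within the later columns alone, where both groups had libraries, the median for SS + RSD against SS was -0.03 in cortex and -0.20 in hippocampus (6 against 2 mice). For SS + RSD + minocycline against SS + RSD it was 0.07 and 0.26 (4 against 6 mice). By edgeR 0 of 46 were called in each, with 0.00518% of all genes in the first of these in cortex and 0% in the others. For the AA mice the term gave -0.22 and -0.17 for AA + RSD against AA and 0.33 and 0.30 for AA + RSD + minocycline against AA + RSD, with 0 of 46 called (0% of all genes in cortex, 0.0326% and 0.0279% in hippocampus) and smallest adjusted p of 0.0727 in cortex and 0.0661 in hippocampus for the second. For SS against AA the term moved the median from -0.08 to 0.09 in cortex and from -0.02 to 0.09 in hippocampus, which is also a change of sign. Before column 38 alone, 28 of the 46 were lower in cortex in SS + minocycline than in SS mice (2 against 6 mice, 18.2% of all genes called), led by Ndufc1 at -0.87 ± 0.10 (SE, adjusted p = 0.000378), and 0 in hippocampus (0.0373%). These 2 SS + minocycline mice are of number series C and the 6 SS mice of series B, so treatment and series cannot be told apart there. After column 38 the same comparison had a median of 0.45 in cortex with 0 called (0.139% of all genes, 2 against 2 mice).

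Few of the genes passed the test between cortex and hippocampus. The first fit took the 2 libraries of a mouse as independent. In it 1 of the 46, the assembly factor Ndufaf7, was lower in hippocampus in AA mice (36.6% of all genes were called in either direction). In SS mice 0 were (30.6%), with 0 at an unadjusted p under 0.05. Ndufaf7 measured 30.6 to 41.5 CPM (median 35.8) in 12 AA cortex and 29.8 to 35.2 CPM (median 32.6) in 11 AA hippocampus libraries, so the tissues overlapped. With the mouse as a block, 9 of the 46 were called in AA mice (50.2% of all genes). The 4 higher in hippocampus were Ndufv3 at 0.20 ± 0.07 (SE), Ndufa3 at 0.16 ± 0.06, Ndufb11 at 0.15 ± 0.06 and Ndufb2 at 0.13 ± 0.05. The 5 lower were Ndufaf2 at -0.19 ± 0.06, Ndufb5 at -0.13 ± 0.05, Ndufv1 at -0.13 ± 0.05, Ndufaf7 at -0.11 ± 0.03 and Ndufaf1 at -0.10 ± 0.04. In SS mice the block gave 2 lower (44.5% of all genes), Ndufaf8 at -0.31 ± 0.10 and Ndufaf2 at -0.22 ± 0.07.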

How the data were processed

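PolyA RNA of mouse cortex and hippocampus was sequenced as directional single reads. Per the labels, the authors aligned reads to GRCm39 with STAR and deposited raw counts per gene (GENCODE annotation) in 1 table per tissue. The STAR version, annotation release and strand setting are not given in the sources used here. Groups came from the labels' genotype, stress and treatment fields. Of 134 libraries with a group, 128 were used, 3 columns of the tables matched no library and were not used, and 1 library whose labels disagreed on tissue was left unassigned.

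Counts were tested with edgeR 4.0.16 (R 4.3.3) by the quasi-likelihood test after TMM scaling and its expression filter (minimum count 10, minimum total 15), with Benjamini-Hochberg adjustment over all genes at 0.05. Each genotype and tissue had 1 model over all its groups, genotype contrasts had 1 model over both genotypes, and tissue contrasts 1 model over AA and SS mice. SE was the log2 difference over the root of F. DESeq2 1.42.0 was an alternative, with others given in the closing section. Levels are CPM on library totals of 12869149 to 107713193 reads, and intervals on counts would cover counting error only. The scripts were tested on simulated data. Cortex and hippocampus libraries of 1 number came from 1 mouse. Over 18 AA and SS mice with both, their deviations from group means correlated by 0.21 to 0.89 (median 0.66). The first fit between tissues left this pairing out, and a second fit used the mouse as a block.

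The members and gene lists were chosen with earlier results of these data known. Genes named with values were core subunits, the called members of smallest p in each comparison, those highest and lowest per length, those nearest the limit, Ndufa4, Ndufa4l2, called list genes of smallest p and the 5 most similar genes. Of the members, 1 is counted but not reported by name or plotted singly here. Other members named were chosen after their values were seen, as were the split at column 38, the comparisons within groups across it, and the alternatives that use it. Promoter windows were RefSeq's (GRCm38.p6). The deposited files' gene positions were not given, so positions are those of GENCODE on GRCm39. Python 3.11.15 was used for levels and figures.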

Additional observations from a re-analysis of the deposited data

How the results depend on the processing

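The counts of complex I genes called were recomputed under RLE size factors, no scaling factor, no filter on low counts, DESeq2, models of only the groups compared, mouse 9674 kept, number series, column range or share of reads outside genes as a term, single series or column ranges, and single mice left out. Of these counts 407 stayed within 1.5 times the reported one and 22 did not. The counts add genes called higher and lower, so they cannot show a change of direction. A count of 0 under both settings was taken as staying. Among values of named members 1082 kept their side of the threshold and 52 lost it. The cause was not tested. Modelling only the groups compared gave 2 genes in SS + RSD against SS cortex, and the column term gave 9 in SS + RSD + minocycline against SS + RSD hippocampus. Series B alone gave 16 in SS + RSD + minocycline against SS + minocycline cortex. There the SS + minocycline mice are after column 38 and the SS + RSD + minocycline mice on both sides of it. It gave 43 (cortex) and 40 (hippocampus) in SS + minocycline against SS, where the 2 SS + minocycline mice are after column 38 and the SS mice before it. The share of all genes called is not given here for these series B fits, nor for the models of only the groups compared. Columns before 38 alone gave 28 in SS + minocycline against SS cortex, where the former mice are all of series C and the latter all of series B, and 1, Ndufb8, in SS against AA cortex. For later against earlier columns in SS + RSD + minocycline cortex, 8 became 13 with DESeq2, 5 without scaling and 38 in series B alone. For hippocampus against cortex in AA mice, 1 became 0 without scaling, 0 in series A, 0 in series B and 9 with the mouse as a replicate block, and the block gave 2 in SS mice. With mice left out in turn, the counts of later against earlier columns ran from 27 to 38 in SS cortex, 0 to 38 in SS + RSD + minocycline cortex and 8 to 10 in SS hippocampus. Adding number series to the model moved the median for SS + RSD against SS to -0.03 in cortex and -0.22 in hippocampus, and that for SS + RSD + minocycline against SS + RSD to 0.44 and 0.58. With the share of reads outside genes as a term they became -0.03, 0.06, 0.17 and 0.06. Counting error bears most on the least abundant of the genes, Ndufa4l2, at 2.08 CPM in cortex.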
